A study of Mus musculus with 12 samples.

Results

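Transcripts that mark T cells and natural killer (NK) cells were followed in whole mouse liver, a tissue in which lymphocytes lie among the hepatocytes. The 10 genes were Cd3d, Cd3e, Cd3g, Cd4, Cd8a, Cd8b1, Nkg7, Gzma, Gzmb and Klrb1c, taken as the rows of the count table with these gene symbols, and all 10 were found among its 55357 genes. The animals were male C57BL/6J mice that all carried floxed Ppara alleles (Ppara fl/fl). WT mice lacked the Cre transgene, and KO mice carried AlbuminCre Tg/+, a Cre recombinase driven by the albumin promoter, so that the deletion of PPARα was aimed at hepatocytes. Mice of 7 weeks of age were given chow diet or CDAHFD, a high-fat diet that lacks choline and supplies amino acids in place of protein, for 6 weeks and were 13 weeks old at the end. The labels gave 4 libraries of WT mice on chow (WT chow), 3 of WT mice on CDAHFD (WT CDAHFD), 2 of KO mice on chow (KO chow) and 3 of KO mice on CDAHFD (KO CDAHFD). The methods of the study give a different number of mice for WT chow and KO chow than the labels do, which was not resolved here.

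T cells recognise antigen with a receptor whose signal is passed on by the CD3 chains, which are therefore present on nearly all mature T cells. CD4 and CD8 are co-receptors that divide conventional T cells into helper and cytotoxic lineages, and CD8 on cytotoxic T cells is a pair of chains encoded by Cd8a and Cd8b1. Cytotoxic T cells and NK cells share a granule machinery that includes granzymes and perforin, and the liver is known for its large resident populations of NK, NKT and innate-like T cells. In bulk RNA, fewer cells of a type and less RNA per cell cannot be told apart, so the values below describe transcripts and not cell numbers.

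Poly-A selected RNA gave between 29906785 and 43551003 counts per library, and values are given as CPM, the counts of a gene scaled to a common library size after TMM, a method that corrects for differences in RNA composition. Log2 fold changes are given ± SE throughout, and p-values measure the spread between these libraries. The TMM factors ran from 0.729 to 0.827 in WT chow and from 1.03 to 1.26 in the other groups. Ppara ranged from 96.2 to 237.8 CPM in WT chow, 59.5 to 75.5 CPM in WT CDAHFD, 14.4 to 38.7 CPM in KO chow and 20.7 to 51.9 CPM in KO CDAHFD, so that neither KO group overlapped the WT group on the same diet. Ppara was past the threshold of edgeR's test on chow (log2 fold change -2.68, adjusted p = 0.00111) but not on CDAHFD (-0.94, adjusted p = 0.547), where 11.3% of all genes were lower without overlap. In every library 10 hepatocyte markers summed to 48471 CPM or more, and the tissue on the label is liver. The circadian gene Dbp exceeded its opposite-phase partner Arntl in 4 libraries, WT chow 3, WT chow 4, KO chow 2 and KO CDAHFD 3, which were spread over 3 groups, and the results were also computed without them. In that fit KO chow is 1 library, replicate 1, which is assumed to vary like the other groups, so its values for the genotype on chow, the diet in KO and the interaction rest on that library.

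All the marker transcripts were scarce. A library held between 1 and 176 counts of any of the 10 genes, and the total over the 12 libraries ran from 233 counts for Gzmb to 933 for Cd4. All 10 passed the filter on low counts, which asked for 0.27 CPM in as many libraries as the smallest group has, but Cd8a reached that level in none of the WT chow libraries and Cd8b1 in 1 of them, so these 2 genes were tested because of the groups in which they were higher. Levels of different genes can be compared per length of exon. On that scale Cd4 had the highest mean in WT chow, 0.936 ± 0.319 CPM per kb (SD, n = 4), with Nkg7 at 0.677 ± 0.175 CPM per kb within its spread, and Cd8a came last with 0.0543 ± 0.0189 CPM per kb. In the other 3 groups the order began with Nkg7 and then Gzma, at 1.68 ± 0.328 and 0.766 ± 0.107 CPM per kb in WT CDAHFD (SD, n = 3), at 1.82 ± 0.841 and 1.65 ± 0.151 CPM per kb in KO chow (SD, n = 2), and at 1.39 ± 0.149 and 0.632 ± 0.195 CPM per kb in KO CDAHFD (SD, n = 3). Nkg7 and Gzma in KO chow lay within their spread, as did Gzma and Cd8b1 in KO CDAHFD, where Cd8b1 had 0.585 ± 0.0634 CPM per kb, and Cd4, Gzmb and Cd3d of WT CDAHFD, at 0.365, 0.362 and 0.359 CPM per kb.

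**Figure D1:**
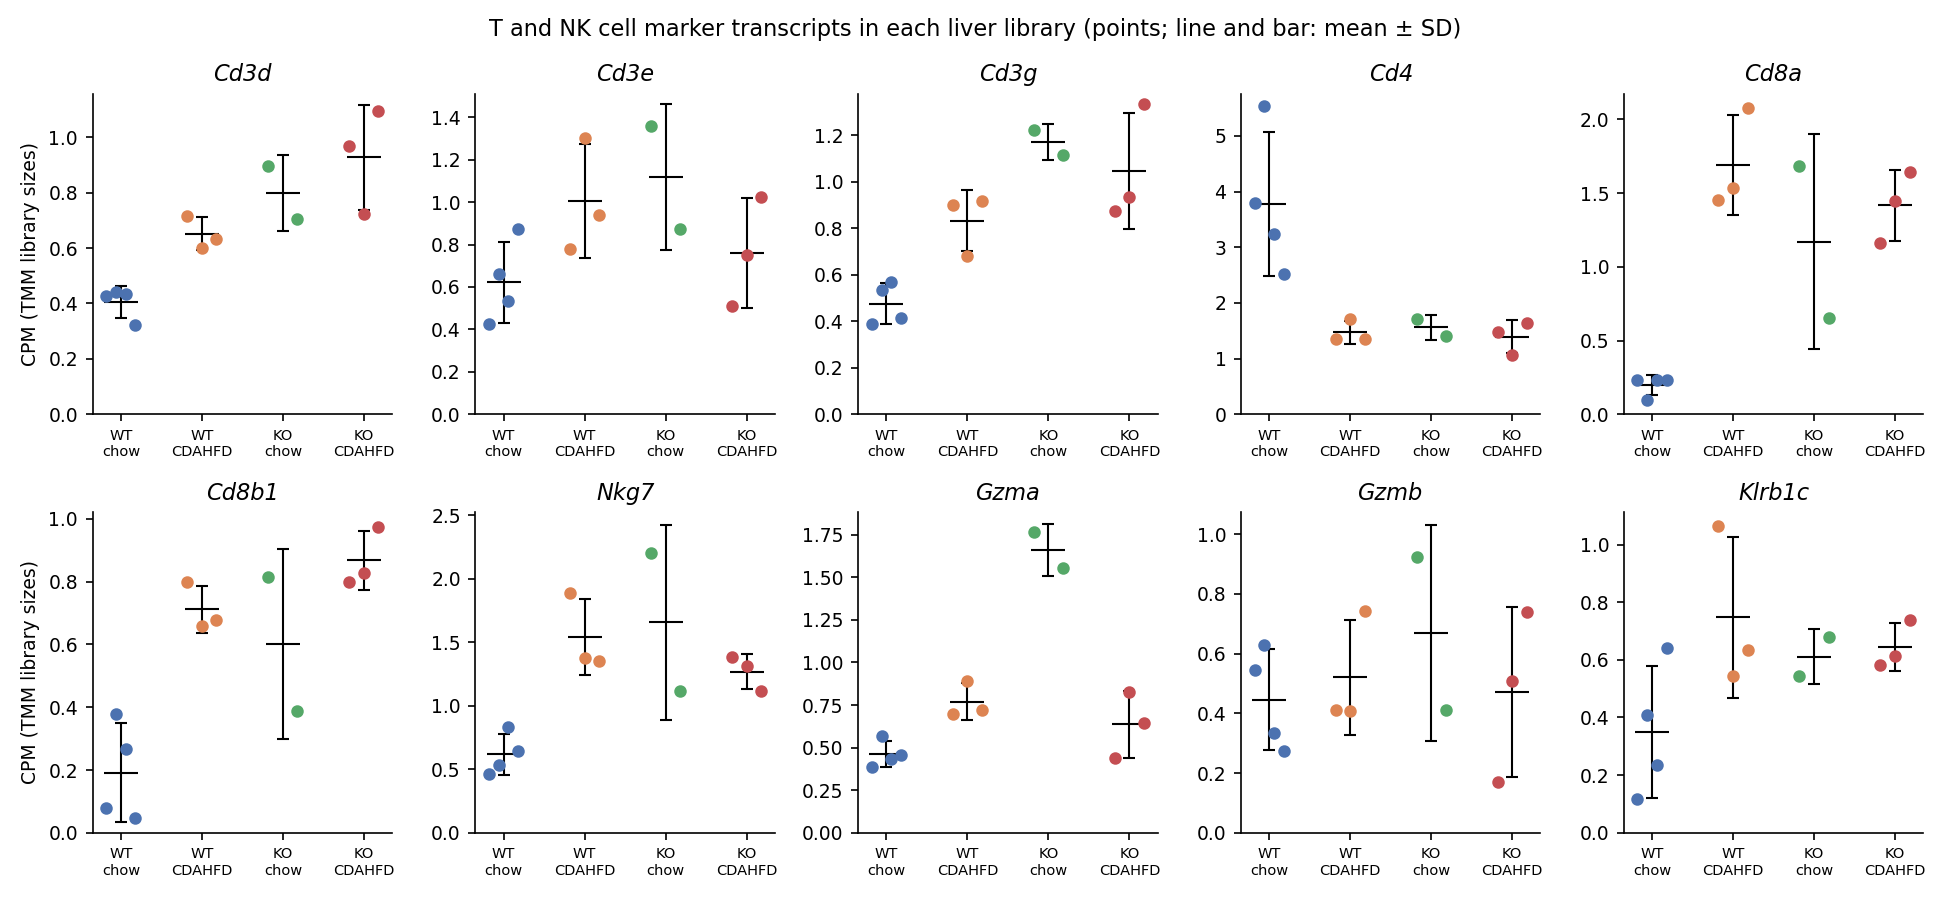
CPM on TMM library sizes (y axis) of each of the 10 genes in every library (points), by group (x axis), with the mean and SD as line and bar. Cd4 lies higher in the 4 WT chow libraries than in any other library, whereas Cd8a lies at or below 0.233 CPM there and at or above 0.655 CPM in all others.

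The genes lie in few places of the genome. Cd3g, Cd3d and Cd3e form a cluster on chromosome 9, in which Cd3g (chr9:44969572-44980431, minus strand) and Cd3d (chr9:44981786-44987339, plus strand) start 1354 bases apart and point away from each other, and Cd3e (chr9:44998740-45009627, minus strand) ends 11400 bases beyond Cd3d. Cd8b1 (chr6:71322788-71337494) and Cd8a (chr6:71373427-71379173) are neighbours on the plus strand of chromosome 6, separated by 35932 bases. Chromosome 6 also carries Cd4 (chr6:124864692-124888221) and Klrb1c (chr6:128778485-128789215), both on the minus strand. Nkg7 lies on chromosome 7 (chr7:43437073-43438249, plus strand), Gzma on chromosome 13 (chr13:113093825-113100981, minus strand) and Gzmb on chromosome 14 (chr14:56258838-56262260, minus strand), all as GENCODE M21 places them on GRCm38.

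The sequences upstream are shown for 4 of the 6 members that rose with the genotype on chow, as the 250 bases before the RefSeq start site (GRCm38.p6), 5′ to 3′ on the strand of the gene. These are chr9:44980432-44980681 (minus strand) for Cd3g, chr9:44981536-44981785 (plus strand) for Cd3d, chr6:71373177-71373426 (plus strand) for Cd8a and chr13:113100982-113101231 (minus strand) for Gzma. Capitals mark matches, on either strand, to 5 motifs of factors that are active in lymphocytes, and no 2 matches overlap in these windows.
Cd3g: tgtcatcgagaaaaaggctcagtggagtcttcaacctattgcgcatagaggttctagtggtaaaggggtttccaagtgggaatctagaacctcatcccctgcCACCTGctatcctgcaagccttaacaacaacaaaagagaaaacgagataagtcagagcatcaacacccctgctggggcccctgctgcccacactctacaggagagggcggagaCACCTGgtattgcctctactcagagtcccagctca
Cd3d: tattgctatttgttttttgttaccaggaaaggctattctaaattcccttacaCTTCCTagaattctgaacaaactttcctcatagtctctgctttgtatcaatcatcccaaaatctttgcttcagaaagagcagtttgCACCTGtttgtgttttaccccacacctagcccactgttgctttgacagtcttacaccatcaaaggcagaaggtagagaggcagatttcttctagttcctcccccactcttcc
Cd8a: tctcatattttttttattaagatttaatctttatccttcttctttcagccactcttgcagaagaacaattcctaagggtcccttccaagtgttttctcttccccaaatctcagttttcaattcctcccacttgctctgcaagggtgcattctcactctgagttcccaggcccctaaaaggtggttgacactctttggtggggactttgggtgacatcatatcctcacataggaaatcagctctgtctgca
Gzma: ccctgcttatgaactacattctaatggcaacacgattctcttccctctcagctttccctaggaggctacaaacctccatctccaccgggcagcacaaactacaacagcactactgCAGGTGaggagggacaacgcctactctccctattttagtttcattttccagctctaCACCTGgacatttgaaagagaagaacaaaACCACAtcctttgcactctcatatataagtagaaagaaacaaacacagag

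Of the 5 motifs, the RUNX core TGTGGT was found in 14.05% of the 32841 upstream windows of all genes, the ETS-type AGGAAG in 29.5%, the T-box site GGTGTGA in 3.33%, the E-box CAGNTG in 44.8% and the AP-1 site TGANTCA in 6.75%. Cd3g holds 2 E-box matches and Cd3d 1 E-box and 1 ETS-type match. Gzma holds 2 E-box matches and 1 RUNX match, and Cd8a holds none of the 5. RefSeq windows were matched for 8 of the 10 genes, without Cd4 and Cd8b1, and a match is a description of letters only.

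The diet effect in WT livers was asked first, as WT CDAHFD against WT chow. Cd8a, Cd8b1, Nkg7, Cd3g and Gzma rose and Cd4 fell, with the largest change in Cd8a, 8.57-fold higher. Cd8a and Cd8b1 had passed the filter through the groups in which they were high, and the fold of Cd8a rests on 3 to 7 counts per WT chow library. The test was edgeR's quasi-likelihood test, with p-values adjusted by Benjamini-Hochberg for all 17358 genes in it, and 6 of the 10 genes were past an adjusted p of 0.05, against 51.1% of all genes tested. The 5 that rose compare with 26.1% of all genes and the 1 that fell with 25.0%. The median log2 fold change over the 10 genes was 0.76, and over all genes tested it was -0.05. The CPM ranges of the 2 groups did not overlap for 7 of the 10 genes, 6 higher (28.0% of all genes) and 1 lower (27.4%).

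The genotype effect on chow, KO chow against WT chow, had the same direction in each of these genes, and it shares the WT chow libraries with the diet effect, so the 2 sets of values are not independent. Cd3d, Cd3g, Cd8a, Cd8b1, Nkg7 and Gzma rose and Cd4 fell, 7 of 10 genes, against 39.0% of all genes tested. Rising genes made up 22.0% of all genes and falling genes 17.0%. The median log2 fold change of the 10 genes was 1.12, against 0.00 over all genes. The CPM ranges did not overlap for 8 genes, 7 higher (27.2% of all genes) and 1 lower (23.0%). Over the fits without 1 library the log2 fold changes of these 7 genes kept their signs. The ranges were widest in Cd8a (1.755 to 3.10), Cd8b1 (0.93 to 2.10) and Nkg7 (0.86 to 1.825). Fewer members were called without KO chow replicate 1 or without KO chow replicate 2, as were fewer of all genes. In both fits KO chow rests on 1 library, which is assumed to vary like the other groups.

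When KO CDAHFD was set against KO chow or WT CDAHFD, few members were past the threshold, as were few of all genes tested. The diet effect in KO livers, KO CDAHFD against KO chow, was past the threshold only for Gzma, which fell (1 of 10 genes, against 6.19% of all genes tested, 3.76% higher and 2.44% lower). It was also the 1 gene without overlap there, where 19.9% of all genes were higher and 19.2% lower without overlap. No member differed between KO CDAHFD and WT CDAHFD by edgeR (0.357% of all genes did, 0.0864% higher and 0.271% lower), none had an unadjusted p under 0.05 there, and DESeq2 also called 0. The interaction, the diet effect in KO minus that in WT, was past the threshold for Cd8a, Nkg7 and Gzma, all with a smaller log2 fold change in KO (3 of 10 genes, against 23.1% of all genes tested, 14.5% in that direction and 8.63% in the other).

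**Figure D2:**
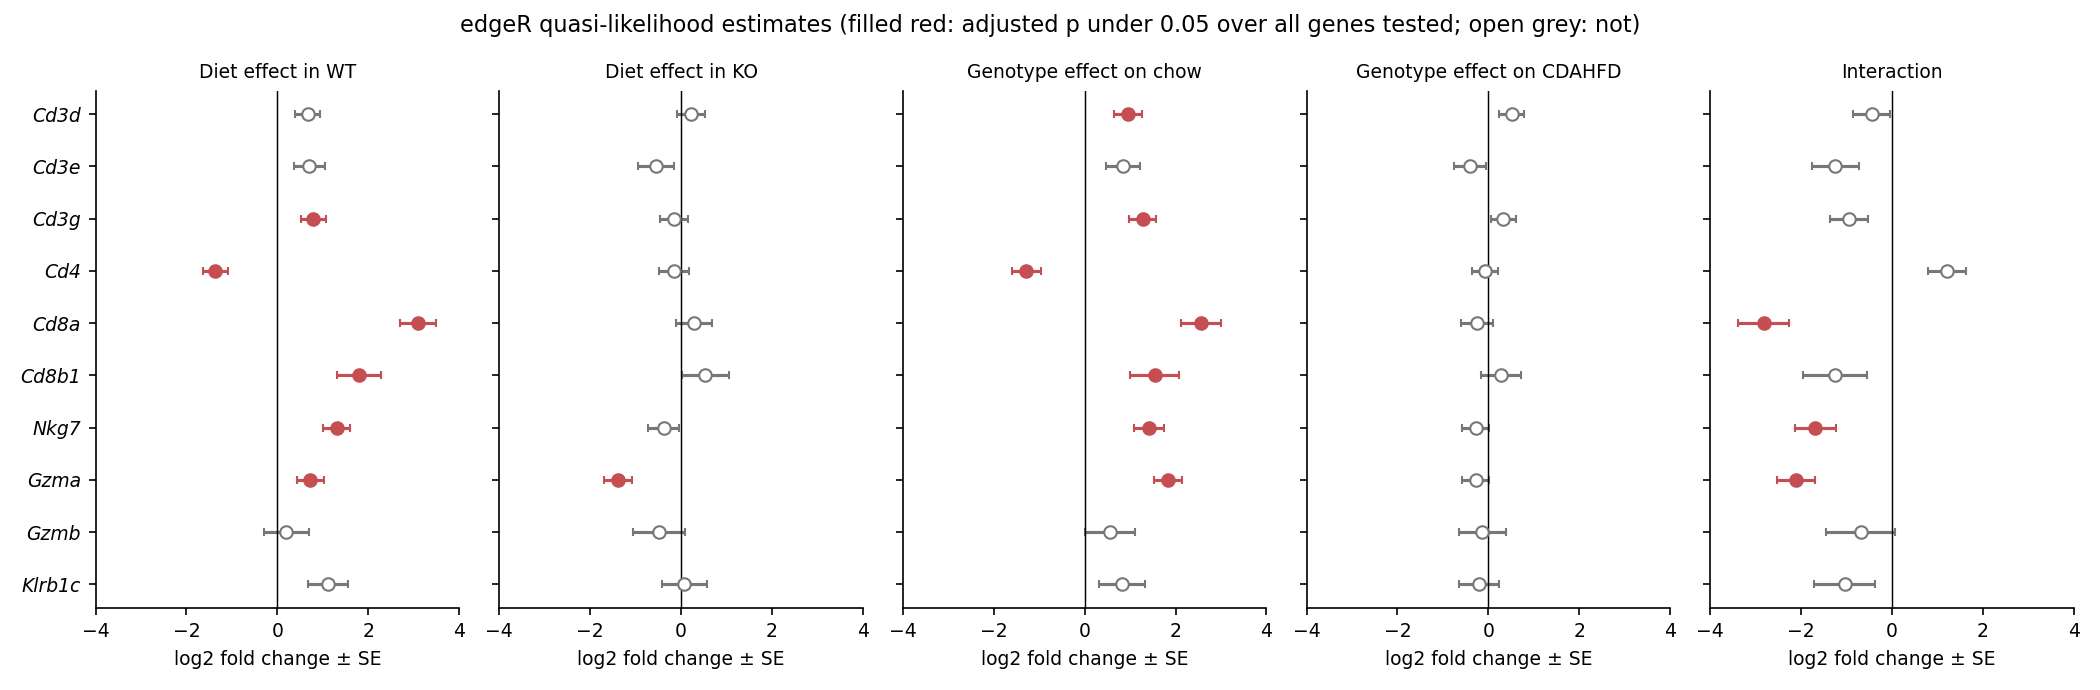
Log2 fold change ± SE (x axis) of each of the 10 genes (rows) in the 5 comparisons (panels), from edgeR's quasi-likelihood fit, with filled red points for an adjusted p under 0.05 over all genes tested and open grey points otherwise. Cd4 lies at -1.36 in WT livers on CDAHFD while Cd8a lies at 3.10, and the panel of KO CDAHFD against WT CDAHFD holds no filled point.

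The CD3 chains were considered first, because they are shared by T cells of either lineage. Cd3g, the gamma chain (ENSMUSG00000002033), had 0.388, 0.535, 0.567 and 0.413 CPM in WT chow, 0.901, 0.680 and 0.918 CPM in WT CDAHFD, 1.22 and 1.12 CPM in KO chow, and 0.873, 0.936 and 1.33 CPM in KO CDAHFD. All 8 libraries outside WT chow lay above its 4 libraries. The log2 fold change of Cd3g was 0.79 ± 0.28 (adjusted p = 0.0293) for the diet in WT and 1.28 ± 0.30 (adjusted p = 0.00482) for the genotype on chow. The diet value did not pass with the replicate number as a block (0.74, adjusted p = 0.0801, edgeR). Nor did it pass with no filter on low counts (0.84, adjusted p = 0.0776). The diet call was lost in each of 4 fits that left out 1 library, without WT chow replicate 1 or 4 or WT CDAHFD replicate 1 or 3 (adjusted p up to 0.089), and without the 4 libraries with Dbp above Arntl (0.83, adjusted p = 0.0772).

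Cd3d, the delta chain (ENSMUSG00000032094), had 0.427, 0.441, 0.433 and 0.321 CPM in WT chow, 0.717, 0.602 and 0.634 CPM in WT CDAHFD, 0.897 and 0.703 CPM in KO chow, and 0.970, 0.722 and 1.09 CPM in KO CDAHFD. WT chow was again below every other library. Cd3d rose with the genotype on chow by a log2 fold change of 0.96 ± 0.31 (adjusted p = 0.0248, from edgeR), a call that was lost without WT chow replicate 4 or KO chow replicate 1 and without the 4 libraries with Dbp above Arntl, with 1 KO chow library left (1.04, adjusted p = 0.111). For the diet in WT the value was 0.67 ± 0.28 (adjusted p = 0.0608), which did not pass. The 3 KO CDAHFD libraries also lay above the 3 of WT CDAHFD, as they did for Cd8b1, 2 of 10 genes where 9.47% of all genes had that order and 11.3% the reverse, and the log2 fold change of 0.51 for Cd3d did not pass either (adjusted p = 0.644).

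Cd3e, the epsilon chain (ENSMUSG00000032093), was the most variable of the 3. It had 0.427, 0.661, 0.534 and 0.871 CPM in WT chow, 0.779, 1.30 and 0.940 CPM in WT CDAHFD, 1.36 and 0.873 CPM in KO chow, and 0.509, 0.749 and 1.02 CPM in KO CDAHFD. The groups overlapped, apart from KO chow and WT chow, where the lower KO chow library lay just above the highest of WT chow. None of the log2 fold changes of Cd3e passed the test (0.70 ± 0.34 with adjusted p = 0.104 for the diet in WT, 0.84 ± 0.38 with adjusted p = 0.0975 for the genotype on chow, by edgeR). Summed over the 3 chains, the level was 1.505 ± 0.180 CPM in WT chow (SD, n = 4), 2.49 ± 0.0928 CPM in WT CDAHFD (SD, n = 3), 3.09 ± 0.558 CPM in KO chow (SD, n = 2), and KO CDAHFD had 2.74 ± 0.618 CPM (SD, n = 3).

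The co-receptors moved in opposite directions. Cd4 (ENSMUSG00000023274), the co-receptor of helper T cells, had 3.80, 5.54, 3.23 and 2.52 CPM in WT chow, 1.35, 1.71 and 1.35 CPM in WT CDAHFD, 1.71 and 1.41 CPM in KO chow, and 1.48, 1.07 and 1.64 CPM in KO CDAHFD. The lowest WT chow library thus held more Cd4 than the highest of the other 8. Cd4 fell by 1.36 on the log2 scale with the diet in WT (SE 0.27, adjusted p = 0.00112), 2.57-fold lower, and this call was kept in each of the 12 fits without 1 library. With the genotype on chow it fell by 1.28 ± 0.32 (adjusted p = 0.0065, from edgeR), 2.43-fold lower, and this call was lost without KO chow replicate 2 (adjusted p = 0.0613). It was also just outside the threshold when libraries were scaled by their size alone, which shifts the median of all genes by 0.40 in this comparison (-0.88, adjusted p = 0.0501).

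Cd8a (ENSMUSG00000053977), the alpha chain of CD8, had 0.233, 0.0944, 0.233 and 0.229 CPM in WT chow, from 3 to 7 counts per library. It had 1.45, 1.53 and 2.08 CPM in WT CDAHFD, 1.69 and 0.655 CPM in KO chow, and 1.16, 1.44 and 1.64 CPM in KO CDAHFD. The WT chow libraries stood apart from all others, and the 2 KO chow libraries differed from each other more than the 3 libraries of either CDAHFD group did. The log2 fold change was 3.10 ± 0.40 (adjusted p = 3.37e-05, edgeR) for the diet in WT and 2.57 ± 0.44 (adjusted p = 0.000534) for the genotype on chow, which is 5.92-fold. Both calls were kept in each of the 12 fits without 1 library. For the genotype on chow the estimate ran there from 1.75, without KO chow replicate 1, to 3.10.

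Cd8b1 (ENSMUSG00000053044), the beta chain, which unlike the alpha chain is largely restricted to T cells, had 0.0776, 0.378, 0.267 and 0.0459 CPM in WT chow (2, 12, 8 and 1 counts). It had 0.799, 0.660 and 0.677 CPM in WT CDAHFD, 0.816 and 0.388 CPM in KO chow, and 0.800, 0.8288 and 0.975 CPM in KO CDAHFD. No library outside WT chow overlapped that group, although the lower KO chow library was close to its highest value. Cd8b1 rose with the diet in WT by a log2 fold change of 1.79 ± 0.48 (adjusted p = 0.00797, edgeR), 3.46-fold, in all 12 fits without 1 library. With the genotype on chow it rose by 1.54 ± 0.54 (adjusted p = 0.0396), and 8 of the 12 fits without 1 library lost that call, as did the fit without the 4 libraries with Dbp above Arntl, again with 1 KO chow library (1.77, adjusted p = 0.0666). Its lowest estimate there was 0.93, without KO chow replicate 1. With the replicate number as a block the genotype value of Cd8b1 was 1.29 (adjusted p = 0.123, edgeR), which did not pass.

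Ratios within a library do not depend on the scaling of libraries, and they are given as descriptions. The 2 CD8 chains together amounted to 0.108 ± 0.0336 of the Cd4 level in WT chow (SD, n = 4), 1.66 ± 0.374 in WT CDAHFD (SD, n = 3), 1.10 ± 0.508 in KO chow (SD, n = 2) and 1.68 ± 0.406 in KO CDAHFD (SD, n = 3). The highest WT chow value was 0.155 and the lowest of the other libraries 0.741. Cd4 per CD3 chain sum was 2.53 ± 0.839 in WT chow (SD, n = 4), and 0.590 ± 0.063, 0.507 ± 0.0215 and 0.516 ± 0.0987 in WT CDAHFD, KO chow and KO CDAHFD (SD, n = 3, 2 and 3). Against Ptprc, the pan-leukocyte gene that encodes CD45, the CD3 chains had the highest mean in WT chow, with 12.7 ± 5.38 CPM of CD3 chains per 100 CPM of Ptprc in WT chow (SD, n = 4), 3.85 ± 0.347 in WT CDAHFD (SD, n = 3), 6.61 ± 1.13 in KO chow (SD, n = 2) and 4.98 ± 0.873 in KO CDAHFD (SD, n = 3), although the lowest WT chow library (6.65) lay within the range of KO chow. Ptprc itself rose by a log2 fold change of 2.29 ± 0.21 (adjusted p = 1.99e-06, edgeR) with the diet in WT and by 1.81 ± 0.23 (adjusted p = 5.03e-05) with the genotype on chow.

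**Figure D3:**
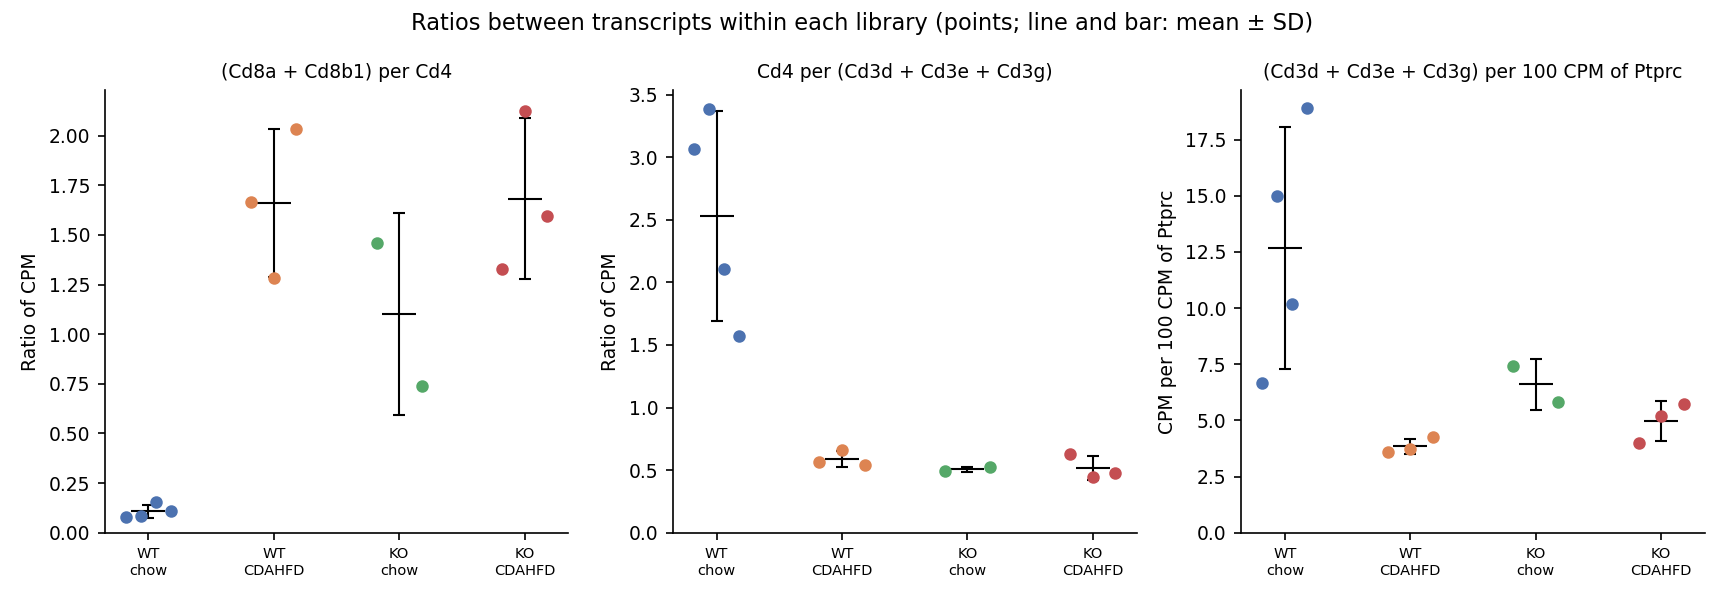
Ratios of CPM (y axes) in each library (points) by group (x axis), with the mean and SD as line and bar, for the CD8 chains per Cd4, Cd4 per CD3 chain sum, and the CD3 chain sum per 100 CPM of Ptprc. WT chow has the lowest CD8 to Cd4 ratio, at or below 0.155, and the highest Cd4 to CD3 ratio, at or above 1.57.

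Among genes of cytotoxic lymphocytes, Nkg7 (ENSMUSG00000004612), a granule membrane protein of NK cells and cytotoxic T cells, had 0.466, 0.535, 0.834 and 0.642 CPM in WT chow, 1.89, 1.38 and 1.35 CPM in WT CDAHFD, 2.20 and 1.12 CPM in KO chow, and 1.38, 1.31 and 1.12 CPM in KO CDAHFD. All 8 libraries outside WT chow were higher than its 4. The log2 fold change of Nkg7 was 1.31 ± 0.30 (adjusted p = 0.00282, edgeR) for the diet in WT, 2.47-fold, a call kept in all 12 fits without 1 library. It was 1.41 ± 0.33 (adjusted p = 0.00469) for the genotype on chow, which was lost without KO chow replicate 1 (adjusted p = 0.12).

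Gzma (ENSMUSG00000023132), the serine protease granzyme A, stood out in KO chow. It had 0.388, 0.567, 0.433 and 0.459 CPM in WT chow, 0.697, 0.893 and 0.721 CPM in WT CDAHFD, 1.77 and 1.55 CPM in KO chow, and 0.436, 0.8288 and 0.642 CPM in KO CDAHFD. The 2 KO chow libraries exceeded all 10 others. Gzma rose with the genotype on chow by a log2 fold change of 1.83 ± 0.30 (adjusted p = 0.000449, edgeR), 3.56-fold, in all 12 fits without 1 library. It fell by 1.38 with the diet in KO (SE 0.31, adjusted p = 0.0243), 2.61-fold lower. Leaving out KO chow replicate 1 or 2 or KO CDAHFD replicate 1 or 3 took that call away (adjusted p up to 0.159), as did leaving out the 4 libraries with Dbp above Arntl, which sets 2 KO CDAHFD libraries against 1 of KO chow (-1.49, adjusted p = 0.102). The rise with the diet in WT was 0.73 ± 0.29 (adjusted p = 0.0496), just inside the threshold, and 9 of the 12 fits without 1 library lost it. That rise also did not pass with DESeq2 (adjusted p = 0.065) or with no filter on low counts (0.117). The replicate block (0.0985) and Dbp above Arntl as a covariate (0.093) lost it too, while library size alone kept it (0.00193).

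Gzmb (ENSMUSG00000015437), granzyme B, showed no separation of groups. Its values were 0.544, 0.630, 0.333 and 0.275 CPM in WT chow, 0.410, 0.408 and 0.743 CPM in WT CDAHFD, 0.925 and 0.412 CPM in KO chow, and 0.170, 0.508 and 0.737 CPM in KO CDAHFD. Its log2 fold changes were 0.20 ± 0.50 (adjusted p = 0.762) for the diet in WT and 0.56 ± 0.56 (adjusted p = 0.46) for the genotype on chow by edgeR, and the wide errors leave changes of about 1 on that scale within reach. Klrb1c (ENSMUSG00000030325), the NK1.1 receptor of NK and NKT cells in C57BL/6 mice, had 0.116, 0.409, 0.233 and 0.642 CPM in WT chow, 1.07, 0.544 and 0.634 CPM in WT CDAHFD, 0.544 and 0.679 CPM in KO chow, and 0.582, 0.615 and 0.737 CPM in KO CDAHFD. The highest WT chow library overlapped every other group. Its log2 fold change with the diet in WT was 1.11 ± 0.44 (adjusted p = 0.0508), just outside the threshold, and it was 0.83 ± 0.50 (adjusted p = 0.215) with the genotype on chow. The diet value passed with no filter on low counts, with DESeq2's size factors (RLE), with library size alone, with DESeq2's own test, with the replicate number as a block and with Dbp above Arntl as a covariate (adjusted p from 0.00474 to 0.0454), and in 2 of the 12 fits without 1 library, where the adjusted p ran from 0.0138 to 0.226. Klrb1c belongs to a family of related receptor genes, and how the counting assigned reads shared between copies is not given in the sources used here.

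Whether the diet effect differed between genotypes was tested as the interaction. For Cd8a it was -2.82 ± 0.56 (adjusted p = 0.00302, edgeR), where the diet effect was 3.10 in WT and 0.28 in KO, and it was past the threshold in all 12 fits without 1 library, at -3.36 without KO chow replicate 2 and down to -1.995 (adjusted p = 0.0295) without KO chow replicate 1. For Gzma the interaction was -2.11 ± 0.43 (adjusted p = 0.00321), from 0.73 in WT to -1.38 in KO, also in all 12 fits. Nkg7 had an interaction of -1.69 ± 0.45 (adjusted p = 0.0164), from 1.31 in WT to -0.38 in KO, which was lost without KO chow replicate 1 (-1.13, adjusted p = 0.125). Cd4 had the opposite sign, 1.21 ± 0.43 (adjusted p = 0.0587), and did not pass, although it did with DESeq2 (adjusted p = 0.0369), with the replicate number as a block (adjusted p = 0.0493), with Dbp above Arntl as a covariate (adjusted p = 0.0354), and without WT chow replicate 4 (adjusted p = 0.0324) or KO CDAHFD replicate 2 (adjusted p = 0.0485). Since KO chow enters with 2 libraries, these values rest on them. Without the 4 libraries with Dbp above Arntl, with KO chow replicate 1 alone for that group (the higher of its 2 libraries for all 3 genes), the 3 values were -3.77 for Cd8a (adjusted p = 0.00296), -2.16 for Gzma (adjusted p = 0.0367) and -2.32 for Nkg7 (adjusted p = 0.00795).

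The remaining genes of T cell receptor signalling were followed in a list of 26 genes, of which 25 could be tested. With the diet in WT, 14 rose and 1 fell, and with the genotype on chow 13 rose and 0 fell. These are 56.0% and 52.0% higher, against 26.1% and 22.0% of all genes tested, and 4.0% and 0.0% lower, against 25.0% and 17.0%. Of the 25, 2 were below the filter's cutoff in every WT chow library. Both were among the genes that rose in either comparison, and they were tested because of the groups in which they were higher. With the diet in KO 2 rose and 0 fell (8.0% and 0.0%, against 3.76% and 2.44% of all genes). No gene of the list differed between the genotypes on CDAHFD, where 0.357% of all genes did. There, 1 gene of the list had an unadjusted p under 0.05, and DESeq2 called 1. Trac, the constant region of the receptor alpha chain, rose by a log2 fold change of 1.18 ± 0.35 (adjusted p = 0.0137, edgeR) with the diet in WT and by 1.57 ± 0.39 (adjusted p = 0.00621) with the genotype on chow. Lck, the kinase that phosphorylates the CD3 chains, rose by 0.86 ± 0.29 (adjusted p = 0.0243) and 0.996 ± 0.32 (adjusted p = 0.026). Trbc2, a beta chain constant region, was 0.64 ± 0.29 (adjusted p = 0.082) and 1.15 ± 0.32 (adjusted p = 0.0122), and reads could be shared with its copy Trbc1. Cd247, the zeta chain, rose by 1.17 ± 0.36 (adjusted p = 0.0169) and 1.29 ± 0.40 (adjusted p = 0.0229), but Pou2f1 overlaps 56.4% of its exon bases on the other strand and the libraries do not keep strand. Without KO chow replicate 1, which leaves 1 KO chow library, fewer genes of the list were called for the genotype on chow, as were fewer of all genes.

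Zap70, the kinase that binds the phosphorylated CD3 chains, did not follow them. Per length of exon its mean in WT chow was 3.38 CPM per kb, against 0.146 to 0.223 CPM per kb for the CD3 chains. The part of cells other than T cells in the Zap70 values was not tested. Zap70 had 5.94, 11.2, 13.8 and 9.45 CPM in WT chow, 4.999, 3.11 and 6.47 CPM in WT CDAHFD, 11.2 and 15.5 CPM in KO chow, and 5.55, 7.73 and 5.73 CPM in KO CDAHFD. Both CDAHFD groups were at the low end and both chow groups reached higher. Zap70 was the 1 gene of the list that fell with the diet in WT, by 1.06 on the log2 scale (SE 0.29, adjusted p = 0.0092, edgeR). Among called genes with at least 20 counts per library on average, to which every statement on the largest changes of a list is limited here, the largest rises with the diet in WT were in Themis, which sets the signal of the receptor in developing T cells (4.99 ± 0.36, adjusted p = 2.76e-07), and Il7r, the receptor of interleukin 7 (4.55 ± 0.28, adjusted p = 8.86e-08). With the genotype on chow, under the same limit, they were in Il7r, by 2.09 ± 0.31 (adjusted p = 0.000202), and in Il2rg, the receptor chain shared by several interleukins, by 1.79 ± 0.24 (adjusted p = 8.27e-05). In KO livers on CDAHFD these 2 were again higher than on chow, Il7r by 2.17 ± 0.31 (adjusted p = 0.00231) and Themis by 1.70 ± 0.39 (adjusted p = 0.0258).

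In a list of 21 genes of T cell subsets and checkpoints, 17 were tested, and 7 rose and 3 fell with the diet in WT while 4 rose and 4 fell with the genotype on chow. The shares are 41.2% higher and 17.6% lower for the diet in WT, against 26.1% and 25.0% of all genes, and 23.5% in each direction for the genotype on chow, against 22.0% and 17.0%. Of the 17, 7 were below the filter's cutoff in every WT chow library, with 4 and 3 of the genes that rose among them. Foxp3, the factor of regulatory T cells, was at 1.64 ± 0.61 (adjusted p = 0.0389, edgeR) with the diet in WT, but it had 61 counts in all and overlaps 4 other genes. Havcr2, an inhibitory receptor that myeloid cells also carry, had the largest estimate (5.23 ± 0.35, adjusted p = 1.62e-07), but with 3 to 10 counts per WT chow library it passed the filter only through the groups in which it was high. Ikzf2, a factor found in regulatory T cells, rose by 1.53 ± 0.38 (adjusted p = 0.00473) with the diet in WT, and Btla, an inhibitory receptor, by 1.42 ± 0.29 (adjusted p = 0.00186) with the genotype on chow. Tox, a factor of T cell development and exhaustion, rose by 1.34 ± 0.32 (adjusted p = 0.0319) with the diet in KO. Lag3, another inhibitory receptor and the neighbour of Cd4 on chromosome 6 (chr6:124904361-124911705), fell with Cd4. It had 4.12, 4.22, 2.37 and 2.84 CPM in WT chow and between 1.04 and 1.70 CPM in the other 8 libraries, and its log2 fold change was -1.46 ± 0.26 (adjusted p = 0.000424) with the diet in WT and -1.39 ± 0.30 (adjusted p = 0.00273) with the genotype on chow. Pdcd1 was among the genes too low to be tested.

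Of 24 NK receptor genes, 20 were tested, and 10 rose with the diet in WT and 9 with the genotype on chow (50.0% and 45.0% higher, against 26.1% and 22.0% of all genes). Of the 20, 12 were below the filter's cutoff in every WT chow library, with 7 and 5 of the genes that rose among them. They were tested because of the groups in which they were higher and could hardly be called lower, so nothing is read from these counts. Among genes of at least 20 counts on average, the largest changes were in Itga2, an integrin of NK cells that platelets also carry, at 3.73 ± 0.33 (adjusted p = 1.39e-06) and 2.66 ± 0.37 (adjusted p = 0.000111), and in Cd244a, a receptor of NK and other cells, at 2.45 ± 0.45 (adjusted p = 0.000638) and 2.34 ± 0.49 (adjusted p = 0.00243). Ncr1, which encodes NKp46, rose by 1.55 ± 0.44 (adjusted p = 0.011, edgeR) and 1.64 ± 0.49 (adjusted p = 0.0186). Klrk1, which encodes NKG2D, was at 0.48 ± 0.20 (adjusted p = 0.0663) with the diet in WT and rose by 1.04 ± 0.22 (adjusted p = 0.00269) with the genotype on chow. Cytotoxic effectors gave 13 tested genes of 15, of which 9 and 8 rose (69.2% and 61.5%, against the same background), and the same holds for 6 of the 13, with 4 and 3 of the genes that rose. Prf1, the pore-forming perforin, rose by 1.36 ± 0.37 (adjusted p = 0.00817) and 1.52 ± 0.41 (adjusted p = 0.0102), and Ccl5, a chemokine of activated T and NK cells, by 2.01 ± 0.26 (adjusted p = 3.94e-05) and 2.14 ± 0.28 (adjusted p = 8e-05). Gzmk, with no count in 3 of the 4 WT chow libraries, had 0.109 to 0.369 CPM in WT CDAHFD, and Ifng was too low to be tested. The chemokines Ccl4 and Ccl3 had the largest estimates, 4.72 ± 0.47 (adjusted p = 3.93e-06) and 3.80 ± 0.25 (adjusted p = 1.24e-07) with the diet in WT. Macrophages also make them, and they can share reads with each other. Neither reached the filter's cutoff in any WT chow library (at most 7 and 8 counts), nor did Itga2, Cd247, Foxp3 or Gzmk, while Themis, Ncr1, Prf1 and Cd244a each reached it in 1 of the 4, so these genes were tested because of the groups in which they were higher.

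Trafficking genes, 17 in number and all tested, had 12 higher and 2 lower with the diet in WT and 12 higher and 1 lower with the genotype on chow (70.6% higher in both, against 26.1% and 22.0% of all genes). The lower genes were 11.8% and 5.88%, against 25.0% and 17.0% of all genes. Of the 17, 1 was below the filter's cutoff in every WT chow library, and it was among the higher genes in both comparisons. The largest rises were in Cx3cr1 and Ccr2, receptors that monocytes and macrophages carry as well as lymphocytes, by 4.98 ± 0.36 (adjusted p = 2.8e-07) and 3.97 ± 0.38 (adjusted p = 2.59e-06) with the diet in WT and by 3.71 ± 0.38 (adjusted p = 9.59e-06) and 3.14 ± 0.40 (adjusted p = 5.05e-05) with the genotype on chow. Of 10 macrophage and monocyte markers, 8 and 9 rose in these comparisons, and their part in the values was not tested. Cxcr3, the receptor that draws effector T cells into inflamed tissue, rose with the diet in WT by 1.03 ± 0.39 (adjusted p = 0.0438, edgeR) and was at 1.16 ± 0.44 (adjusted p = 0.0508) with the genotype on chow. Its ligand Cxcl9 was, as Gzma, lower on CDAHFD than on chow in KO livers, by a log2 fold change of -1.93 ± 0.28 (adjusted p = 0.00275). Cxcr6, a receptor of liver-resident lymphocytes, was at 0.62 ± 0.25 (adjusted p = 0.0558) and 0.31 ± 0.29 (adjusted p = 0.435). The interaction was past the threshold for 14 of the 17 genes, 12 of them lower (70.6%, against 14.5% of all genes), led by Cx3cr1 (-3.48 ± 0.50, adjusted p = 0.000299) and Ccr2 (-3.24 ± 0.54, adjusted p = 0.000847), and 8 of the 10 macrophage and monocyte markers were also lower.

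Other cell types moved along with these transcripts. Relative to the WT chow mean, the summed level of 8 T cell markers, Cd4 included, was 1.26-fold in WT CDAHFD, 1.33-fold in KO chow and 1.29-fold in KO CDAHFD. Without Cd4, the most abundant of them in WT chow, which fell, the other 7 markers stood at 2.51-, 2.66- and 2.62-fold. The summed level of 7 NK cell markers was 2.14-, 2.74- and 1.79-fold. For 10 macrophage and monocyte markers the ratios were 4.50-, 2.61- and 3.78-fold, for 10 dendritic cell markers 5.72-, 2.81- and 6.22-fold, and for 10 pan-leukocyte genes 3.45-, 2.15- and 3.05-fold. For 10 neutrophil markers they were 4.54-, 4.51- and 4.40-fold, and 8.19-, 8.14- and 7.94-fold without WT chow replicate 1, whose sum was 14.9 CPM against 2.96 to 4.20 CPM in the other 3. B and plasma cell markers stood at 1.62-, 1.94- and 1.70-fold, with WT chow libraries from 12.9 to 42.1 CPM that overlapped every other group. Hepatocyte markers were at 0.515-, 0.794- and 0.497-fold. Mouse dendritic cells can carry Cd8a. Of their 10 markers 6 rose with the diet in WT and 7 with the genotype on chow (60.0% and 70.0%, against 26.1% and 22.0% of all genes). The sum of these markers was 11.7 to 15.97 CPM in WT chow and 37.1 to 105.0 CPM elsewhere. The dendritic cell list shares a gene with the list of T cell receptor signalling, so it is not free of lymphocyte genes. The part of dendritic cells in the Cd8a values was not tested.

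Beside the lower Cd4 and Lag3, 10 markers of liver endothelial cells, listed after these values had been seen, summed to 330.6 to 471.8 CPM in WT chow, 253.5 to 347.5 CPM in WT CDAHFD, 311.5 to 445.4 CPM in KO chow and 254.0 to 423.1 CPM in KO CDAHFD. Of the 10, 5 fell and 1 rose with the diet in WT, and 0 fell and 1 rose with the genotype on chow. Over all genes tested, 25.0% fell and 26.1% rose with the diet in WT, and 17.0% fell and 22.0% rose with the genotype on chow. The part of endothelial cells, hepatocytes or dendritic cells in the Cd4 values was not tested. Of the cell type markers, the neutrophil genes Ly6g, Camp and Ltf were at 0 in all WT chow libraries.

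**Figure D4:**
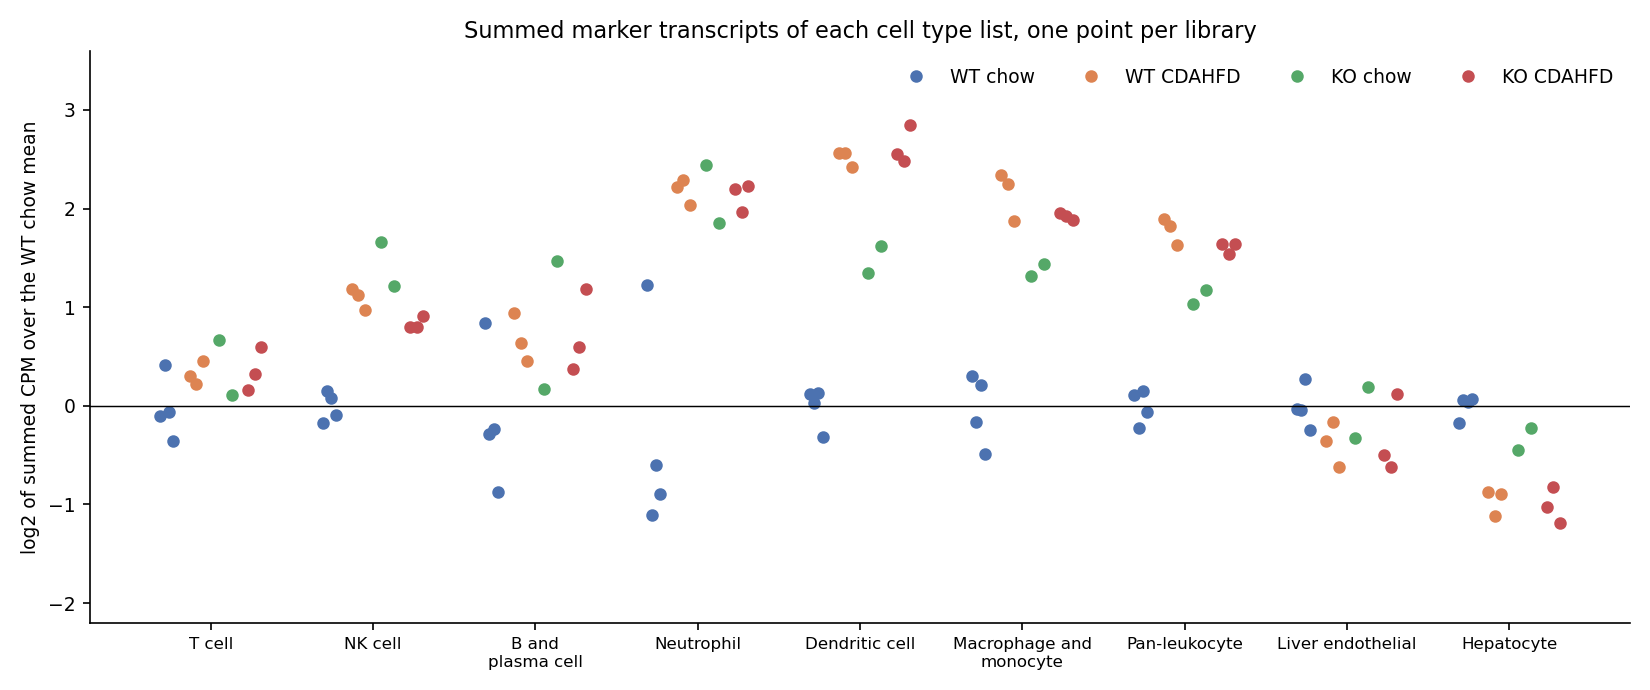
Log2 of the summed CPM of each cell type's markers over the WT chow mean (y axis), 1 point per library, for 9 lists (x axis), coloured by group. Points of T cell markers, Cd4 included, lie close to the WT chow libraries (without Cd4 they would lie 2.51- to 2.66-fold above their mean), those of neutrophil, dendritic cell and macrophage markers lie above all WT chow libraries, and hepatocyte markers below.

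The members varied together only in part. Over the 12 libraries, which share their scaling and groups, the log2 CPM of Cd3d and Cd3g had a Pearson r of 0.91, Cd8a and Nkg7 of 0.88, and Cd4 and Cd8a of -0.90, while Gzmb had an r between -0.02 and 0.47 with the other 9. After the group means were removed, r was 0.58 for Cd3d and Cd3g, 0.47 for Cd8a and Nkg7 and -0.32 for Cd4 and Cd8a. Other pairs turned, as Cd4 with Cd3d (-0.69 before and 0.68 after), Cd4 with Cd8b1 (-0.64 and 0.64) and Cd8a with Cd8b1 (0.79 and -0.14). Among the genes that are no members, those most like the mean of the 3 CD3 chains over the 12 libraries were ENSMUSG00000118664, Rnaseh2b, Tmem237, Gucy1b1, Slc16a5, Batf2, Fkbp9, Gm12185, Slc41a3 and Ccl5, with r from 0.95 down to 0.94. On deviations from the group means the list began with Mroh2a, Ccdc183 and Gjc1 (r of 0.95, 0.93 and 0.90), and at these low counts such values are descriptions of 12 libraries only.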

How the data were processed

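Liver RNA libraries were poly-A selected and non-directional. The authors checked reads with FastQC 0.11.5, aligned them to GRCm38 with STAR 2.7.3a and deposited raw counts per Ensembl gene; the counting program and annotation release are not given in the sources used here. All 12 value columns were used. Symbols and positions come from GENCODE M21, with a match for 94.08% of identifiers, carrying 99.691% of counts. Groups and replicate numbers were taken from the sample titles. No batch is named, so that batch and group cannot be told apart, and nothing states whether libraries share cages or litters.

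In R 4.3.3, edgeR 4.0.16 was run with filterByExpr (minimum count 10, groups given, 17358 genes kept), TMM scaling, 1 mean per group over all libraries, glmQLFit and glmQLFTest, and Benjamini-Hochberg adjustment over all genes kept, at 0.05. The SE is the log2 fold change divided by the square root of F. For correlations, a prior count of 2 was added before taking log2 of CPM. Alternatives were no filter, RLE factors, library size alone, DESeq2 1.42.0, a replicate block, only the groups compared, and leaving out each library; leaving out the libraries with Dbp above Arntl, that state as a covariate, and the marker sums without Cd4 or without WT chow replicate 1 were added after seeing the data. Python 3.11.15, pandas 2.3.3 and matplotlib 3.10.9 did the rest. The fit was tested on simulated data.

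The members, gene lists and motifs were chosen with earlier results of these data known. The naming rule took all 10 members and allowed 16 further genes listed by name and, per list and comparison the 2 called genes with the largest change and at least 20 counts on average. Upstream sequences come from RefSeq.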

Additional observations from a re-analysis of the deposited data

Results flagged for a closer look

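In WT chow, the lowest of the 4 libraries stood apart from the other 3 for 2 genes. For Cd3d it was replicate 4, at 0.321 CPM against 0.427 to 0.441 CPM in the others, and for Cd8a replicate 2, at 0.0944 CPM against 0.229 to 0.233 CPM. These are 7 and 3 counts, and chance marks about 1 in 20 groups in this way.

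The diet effect differed between KO and WT livers for Cd8a (interaction of -2.82 on the log2 scale), Nkg7 (-1.69) and Gzma (-2.11), each with a smaller or opposite diet effect in KO by edgeR's test of the interaction (adjusted p = 0.00302, 0.0164 and 0.00321).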

How the results depend on the processing

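Of the log2 fold changes of the members under the alternatives, 901 kept direction and side of the threshold, 49 lost the threshold, 18 passed it, and 22, all of values that were not called, changed sign; the cause was not tested. The number of members called for the diet in KO, 1 in the report, was 0 with the replicate block, with only the groups compared, and without the 4 libraries with Dbp above Arntl, and ranged from 0 to 1 without 1 library. For the genotype on chow it ranged from 4 to 7 without 1 library, and for the diet in WT from 4 to 6, with 4 without WT chow replicate 1, WT CDAHFD replicate 1 or WT CDAHFD replicate 3. The interaction gave 5 when scaled by library size alone and 2 to 4 without 1 library. Library size alone moved the median of all genes by 0.51 for the diet in WT, where it gave 9 members. Over all 17358 genes it gave 10262 calls there (8863 in the report) and 4944 for the interaction (4011 in the report). Calls over all genes for the diet in WT ran from 7299 to 8984 without 1 library. KO CDAHFD against WT CDAHFD gave 0 under all settings run.

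Signs turned as follows. With library size alone, Cd3g (0.058) and Cd4 (0.059) turned for the diet in KO. Without the 4 libraries with Dbp above Arntl, Gzmb turned for the diet in WT (-0.18), and Cd3d (-0.085), Cd8a (-0.37) and Cd8b1 (-0.0051) for the diet in KO. With that state as a covariate, Cd4 turned for the genotype on CDAHFD (0.038). Over the fits without 1 library, Gzmb ranged from -0.14 to 0.45 for the diet in WT, -0.98 to 0.22 for the diet in KO, -0.11 to 1.03 for the genotype on chow and -0.62 to 0.27 for the genotype on CDAHFD. For the diet in KO, Cd4 ranged from -0.30 to 0.012, Nkg7 from -0.80 to 0.20, Klrb1c from -0.055 to 0.24 and Cd8a from -0.26 to 1.13. For the genotype on CDAHFD, Cd4 ranged from -0.21 to 0.083 and Klrb1c from -0.40 to 0.13.

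Replicate numbers did not pair the libraries. Correlations between same-numbered libraries ran from -0.24 to 0.27 over 15 pairs, 3 of them over 0.1, and 4 of 12 libraries correlated best with their own number. With the replicate block, 5 members were called for the diet in WT, 5 for the genotype on chow, 0 for the diet in KO, 0 for KO CDAHFD against WT CDAHFD and 4 for the interaction. Over all 17358 genes, the block gave 7797, 5433, 640, 59 and 3137 calls in the same order. The report had 8863, 6763, 1075, 62 and 4011. Gzmb turned to -0.031 for the diet in WT with the block. Over all genes, calls for the diet in KO were 1075 in the report and 640 with the replicate block, 581 with only the groups compared, 600 without the 4 libraries with Dbp above Arntl, 2212 with that state as a covariate, 1886 with DESeq2 and 233 to 1437 without 1 library, the lowest without KO chow replicate 1. For KO CDAHFD against WT CDAHFD they were 62, and 215 with no filter, 244 with DESeq2, 154 with only the groups compared, 113 and 155 under the settings on Dbp and Arntl, and 26 to 75 without 1 library. For the genotype on chow, 6763 calls became 4320 without KO chow replicate 1, and the 13 T cell receptor genes 8 with only the groups compared. At 1 to 176 counts per gene and library, small changes could not be detected.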

Other observations

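Of 9 tested B and plasma cell genes, 2 rose with the diet in WT by edgeR (22.2%, against 26.1% of all genes). With the genotype on chow 3 rose (33.3%, against 22.0%), so the counts of rising genes lie near those of all genes. In both comparisons 0 fell, against 25.0% and 17.0% of all genes. Igkc, the kappa light chain constant region, rose on the log2 scale (± SE) by 1.31 ± 0.44 (adjusted p = 0.0256) and 1.68 ± 0.48 (adjusted p = 0.015). Cd22, at 1.85 ± 0.25 (adjusted p = 4.47e-05) with the diet in WT, was the other gene that rose there.

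Of 10 macrophage and monocyte markers, 8 rose with the diet in WT by edgeR and 0 fell (80.0% and 0.0%, against 26.1% and 25.0% of all genes). The 2 that did not pass were Clec4f and Vsig4, both markers of resident Kupffer cells, at -0.56 ± 0.36 (adjusted p = 0.212) and 0.32 ± 0.28 (adjusted p = 0.367). With the genotype on chow Vsig4 rose by 1.15 ± 0.31 (adjusted p = 0.0102) and Clec4f was at 0.66 ± 0.39 (adjusted p = 0.208). These genes were named after their values were seen, and differences between markers were not tested.

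The genes with a course most like that of Cd4 over the 12 libraries, looked up after its values had been seen, were Gm19241, Tmem147os and Gm16157 (Pearson r of 0.95, 0.94 and 0.94).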
